A study of Solanum lycopersicum with 3 samples.

Results

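The miR159 and miR319 families of small RNAs were examined in unpollinated tomato ovaries. The members are all rows of the mature miRNA counts named sly-miR159 or sly-miR319, with or without a letter or an arm after the number, and they were chosen by name. They are 6 of 634 counted miRNAs and 6 of the 125 known ones: sly-miR159, sly-miR159b, sly-miR319a, sly-miR319b, sly-miR319c-3p and sly-miR319c-5p. Ovaries of the tomato cultivar UC82 had been injected at the pedicel with double-stranded RNA (dsRNA) against AGL6 (AGL6sil) or against IAA9 (IAA9sil), at 5 µg of dsRNA on 1 mg of layered double hydroxide (LDH) particles per ovary. The mock-treated ovaries (ctrl), which the sample title calls WT, received LDHs without dsRNA. Buds of all 3 groups were emasculated after 6 h, bagged against pollination, and their ovaries were collected after 5 days. Each group is 1 small RNA library from 1 pool of ovaries, and the silencing is transient. AGL6 is a MADS-box factor and IAA9 a member of the Aux/IAA proteins of auxin signalling, and tomato plants that lack either can form seedless fruit. Their transcripts are not among these counts of small RNAs, and neither are markers of ovary cell types, so neither the silencing nor the tissue could be checked here.

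miRNAs guide an ARGONAUTE protein to matching transcripts, which are then cleaved or kept from translation. miR159 and miR319 are old plant families with closely related mature sequences and separate main targets. miR159 acts on GAMYB transcription factors, which take part in gibberellin responses, in anthers and, in tomato, in ovule development and fruit set. miR319 acts on a class of TCP transcription factors, and in tomato on LANCEOLATE, which controls how long leaf cells keep dividing. In both families the mature miRNA comes from the 3′ arm of the precursor, so a 5p row of miR319 holds the other, usually discarded strand. Their mature sequences were not analysed here. How the authors assigned reads that match several related rows is not given in the sources used here, so a split between near-identical rows is uncertain.

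The libraries differed in counted miRNA reads, with 1038064 in ctrl, 1053000 in IAA9sil and 1460919 in AGL6sil. Sequencing depth had the opposite order, since the study's clean reads were 0.857-fold those of ctrl in AGL6sil and 0.916-fold in IAA9sil. Outside these families, sly-miR162 alone held between 34.8% (ctrl) and 44.2% (AGL6sil) of the counted miRNA reads. With 1 library per group there are no replicates, no test was made, and every difference is one between libraries. Intervals are 95% exact (Clopper-Pearson or conditional) intervals, which describe counting error alone and not the spread between pools of ovaries. PCR copies of a molecule cannot be told from separate molecules in these reads, so the intervals may be too narrow even for counting error. In a pooled organ, more of a miRNA per cell and more of the cells that make it cannot be told apart.

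The 2 families together took 6.41% of the counted reads in ctrl, 7.25% in IAA9sil and 10.5% in AGL6sil. Nearly all of these reads were sly-miR159, the family's main row. It had 62020 reads in ctrl, 71393 in IAA9sil and 148794 in AGL6sil, which made it the known miRNA with the second most reads in both silenced libraries and put it at rank 6 in ctrl. As a share of counted reads it stood at 5.97% in ctrl (interval 5.93 to 6.02%), 6.78% in IAA9sil (6.73 to 6.83%) and 10.2% in AGL6sil (10.1 to 10.2%). The 3 intervals do not overlap, and AGL6sil stands further from ctrl than IAA9sil does.

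The miR319 family was counted far less often, at 4551 reads in ctrl, 4940 in IAA9sil and 4480 in AGL6sil over its 4 rows. Its share of counted reads was 0.438% (interval 0.426 to 0.451%), 0.469% (0.456 to 0.482%) and 0.307% (0.298 to 0.316%) in that order. The order of the libraries is thus not that of miR159, since AGL6sil has the highest share of miR159 and the lowest share of miR319. For miR319 the place of AGL6sil turns under other scalings, which are given with the log2 ratios.

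Within miR319, sly-miR319b led with 2920 reads in ctrl, 2907 in IAA9sil and 3071 in AGL6sil. The next row, sly-miR319c-3p, had 1422, 1756 and 1237 reads in the same order. sly-miR319a had 201, 271 and 169 reads. The first of these varied least between libraries before scaling, while the other two were both lowest in AGL6sil and highest in IAA9sil. In ctrl, sly-miR319b was at rank 27 among the 125 known miRNAs, sly-miR319c-3p at rank 35 and sly-miR319a at rank 56. Read counts of different rows are not scaled by length, since mature miRNAs are of nearly the same length.

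The remaining members were close to the limit of detection. sly-miR159b had 3 reads in ctrl, 14 in IAA9sil and 0 in AGL6sil, and the 0 was taken at 3 reads, or 0.00202% of the miR159 reads of that library, where the exact interval reaches 0.00248%. sly-miR319c-5p, the discarded strand of miR319c, had 8, 6 and 3 reads. Each of these rows summed to 17 reads, below the limit of 50 reads over the 3 libraries that the study's methods set for a call, so 4 of the 6 members passed it.

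**Figure D1:**
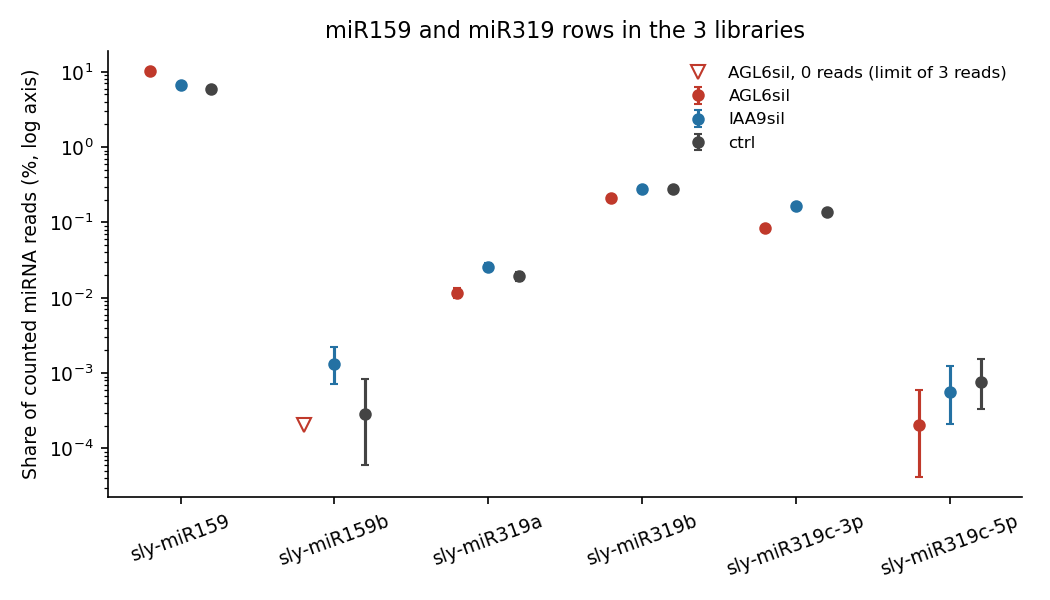
Share of counted miRNA reads (%, log axis) taken by the 6 members in the AGL6sil, IAA9sil and ctrl libraries, with 95% Clopper-Pearson intervals; the open triangle marks the limit of 3 reads where AGL6sil had 0. sly-miR159 is highest in AGL6sil, at 10.2% against 5.97% in ctrl, whereas sly-miR319a, sly-miR319b and sly-miR319c-3p are lowest there on this scale but not under every other scaling.

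The balance of the 2 families can be read within each library, with no scaling between libraries. For every 100 miR159 reads there were 7.34 miR319 reads in ctrl (interval 7.12 to 7.56), 6.92 in IAA9sil (6.72 to 7.12) and 3.01 in AGL6sil (2.92 to 3.10). The ratio of miR319 to miR159 was therefore lower in AGL6sil than in ctrl by a log2 difference of −1.29 (interval −1.35 to −1.22), which is a 2.44-fold lower ratio. Against IAA9sil it was lower by −1.20 (−1.26 to −1.14), or 2.30-fold. Between IAA9sil and ctrl the difference was only −0.08 (−0.15 to −0.02), and its sign turned to 0.11 when sly-miR319b was left out. Taken row by row, sly-miR159 in AGL6sil against ctrl exceeded sly-miR319a by a log2 difference of 1.51 (1.21 to 1.82), sly-miR319b by 1.19 (1.11 to 1.26) and sly-miR319c-3p by 1.46 (1.35 to 1.58). Each abundant miR319 row thus stood lower against miR159 in AGL6sil than in ctrl. This was not limited to miR319. By its AGL6sil to ctrl ratio, sly-miR159 ranked 12 from the top in a set of 91 known miRNAs with enough reads. Most of that set therefore also stood lower against sly-miR159, which lay 1.37 in log2 above the median of the set. Relative to sly-miR162, which has its own place in miRNA production because it acts on the transcript of the enzyme DCL1, sly-miR159 had 17.2 reads per 100 in ctrl, 16.2 in IAA9sil and 23.1 in AGL6sil.

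The miR319 rows also shifted among themselves. sly-miR319b made up 64.2% of the miR319 reads in ctrl (interval 62.7 to 65.6%), 58.8% in IAA9sil (57.5 to 60.2%) and 68.5% in AGL6sil (67.2 to 69.9%). sly-miR319c-3p took 31.2% (29.9 to 32.6%), 35.5% (34.2 to 36.9%) and 27.6% (26.3 to 28.9%). The silenced libraries lie on opposite sides of ctrl for both rows, with intervals that do not overlap ctrl. In log2 terms, sly-miR319b against sly-miR319c-3p was 0.27 higher in AGL6sil than in ctrl (0.14 to 0.41) and 0.31 lower in IAA9sil than in ctrl (difference −0.31, interval −0.44 to −0.18). Both comparisons use the same ctrl library. The spread between pools of ovaries is unknown, and shifts of this size have no replicate check. sly-miR319a, at 4.42% (3.84 to 5.05%), 5.49% (4.87 to 6.16%) and 3.77% (3.23 to 4.37%), kept the same order of libraries as sly-miR319c-3p. The difference between these rows was −0.05 in AGL6sil against ctrl (−0.37 to 0.27) and 0.13 in IAA9sil against ctrl (−0.16 to 0.42), so it lay within counting error in both. The arms of miR319c were far apart in all libraries, with 178 reads of 3p for each read of 5p in ctrl (90.0 to 413), 293 in IAA9sil (134 to 799) and 412 in AGL6sil (141 to 2002). Those 3 intervals overlap.

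**Figure D2:**
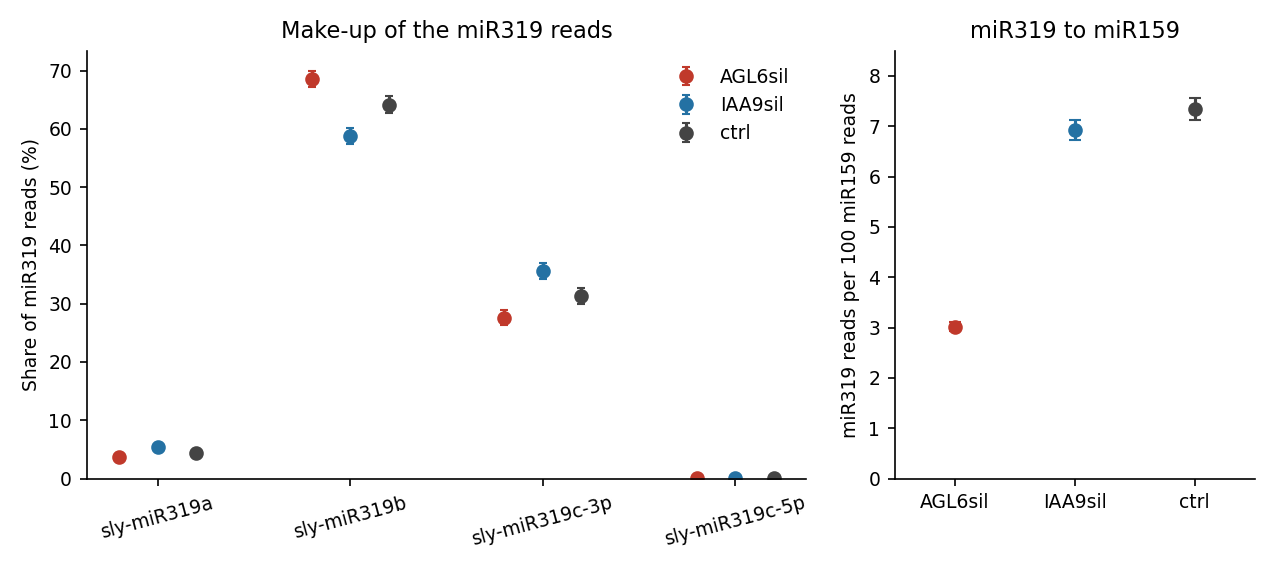
Left, the share of each miR319 row in all miR319 reads (%), and right, miR319 reads per 100 miR159 reads, in the AGL6sil, IAA9sil and ctrl libraries with 95% Clopper-Pearson intervals. sly-miR319b takes 68.5%, 58.8% and 64.2% of the miR319 reads, and the ratio to miR159 is 3.01 in AGL6sil against 6.92 and 7.34 in the others.

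To compare levels between libraries, counts were scaled by the library median, the scale named in the study's methods. Over all 634 miRNAs it divides AGL6sil by 2.13 and IAA9sil by 1.16 relative to ctrl. Of these 634 rows, 509 are predicted miRNAs, so the median rests mostly on them. The median of the 125 known miRNAs alone would divide AGL6sil by 0.762 and IAA9sil by 1.01. The intervals of the log2 ratios hold the scale fixed. A miRNA was called where it had at least 50 reads and a log2 ratio of at least 1.5 in size. In AGL6sil against ctrl, 0 of the 4 members past the read limit were called, where 21.4% of all 374 miRNAs past that limit and 47.3% of the 91 known ones were. The log2 ratio of sly-miR159 was 0.17 (interval 0.16 to 0.19), while those of sly-miR319a, sly-miR319b and sly-miR319c-3p were −1.34 (−1.64 to −1.04), −1.02 (−1.09 to −0.94) and −1.29 (−1.40 to −1.18). The scaled level of miR159 was thus 1.13-fold that of ctrl, and the scaled levels of the abundant miR319 rows were between 0.395-fold and 0.494-fold that of ctrl. sly-miR319c-5p, from 3 reads against 8, was at −2.51 (−5.05 to −0.45), and no fold is given for sly-miR159b, which was at or under 3 reads in both libraries.

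These values in AGL6sil depend on the scale, because its scaling factor ranged from 0.762 to 2.13 over the 8 scalings tried. sly-miR159 was higher than ctrl under all 8, by a log2 ratio of 0.17 to 1.65, and passed 1.5 with the median of the known miRNAs as the scale. sly-miR319a ranged from −1.34 to 0.14, sly-miR319b from −1.02 to 0.47 and sly-miR319c-3p from −1.29 to 0.19. sly-miR319b turned higher than ctrl under 3 scalings, sly-miR319c-3p under 2 and sly-miR319a under 1, so no direction against ctrl can be given for miR319. On the scale of the study's clean reads, every log2 ratio in AGL6sil lies 1.31 higher than with the median.

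**Figure D3:**
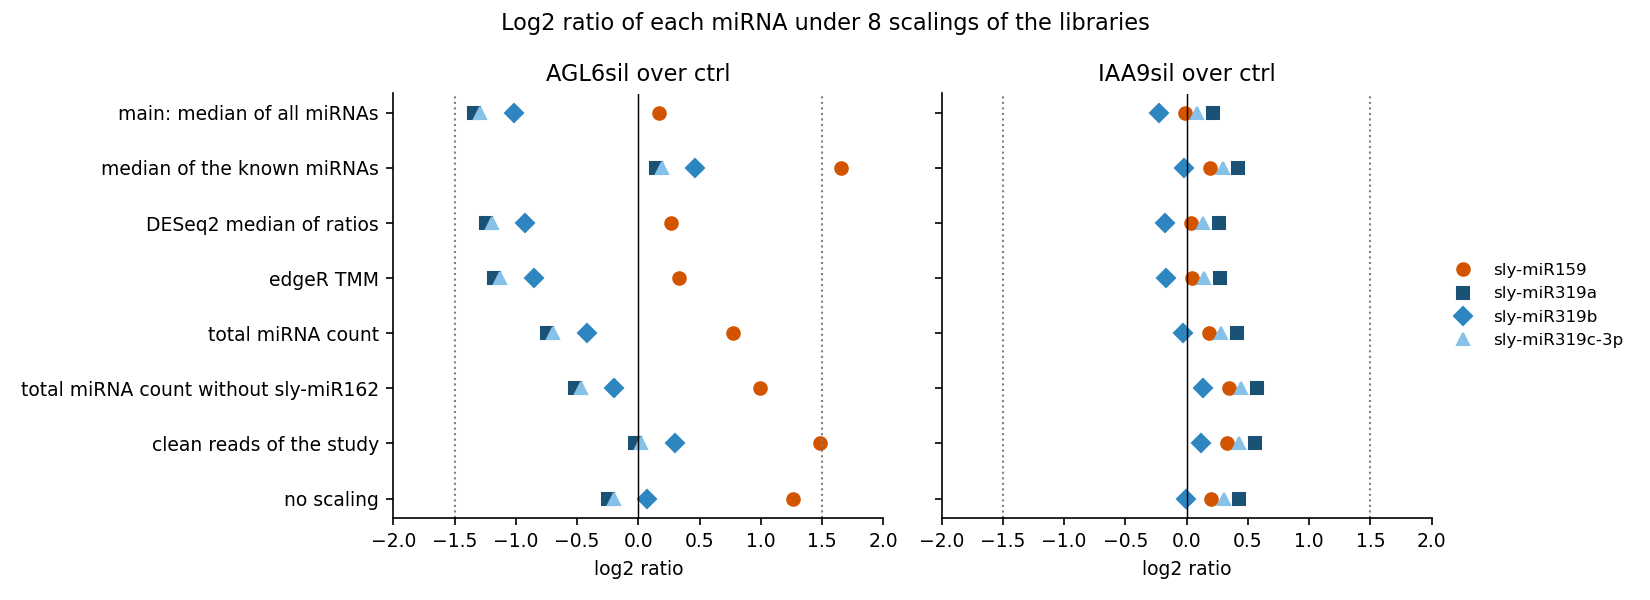
Log2 ratio to ctrl (horizontal axis) of the 4 members with at least 50 reads under 8 ways of scaling the libraries (vertical axis), for AGL6sil and IAA9sil; dotted lines mark 1.5 in size. A scaling shifts all points of a library by the same amount, so their order within a panel cannot change. In AGL6sil, sly-miR159 lies to the right of the miR319 rows, between 0.17 and 1.65, while in IAA9sil all points lie between −0.22 and 0.57.

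The rank of a ratio among the other miRNAs does not depend on the scale. In AGL6sil against ctrl, sly-miR159 had the 12th highest ratio among the 91 known miRNAs that reached 50 reads, and sly-miR319b, sly-miR319c-3p and sly-miR319a were at ranks 40, 48 and 49. The median log2 ratio of those 91 was −1.20, and sly-miR159 lay 1.37 above it, while the miR319 rows lay between −0.14 and 0.18 from it. Among the 25 known miRNAs with 10000 reads or more in total, sly-miR159 was at rank 5 from the top. Over all 374 miRNAs past the read limit, most of them predicted, the median was −0.12. Against this median sly-miR159 was 0.29 higher, and sly-miR319b, the closest of the miR319 rows to it, was lower by −0.90. The miR319 rows therefore stood near the middle of the known miRNAs and sly-miR159 stood above most of them.

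**Figure D4:**
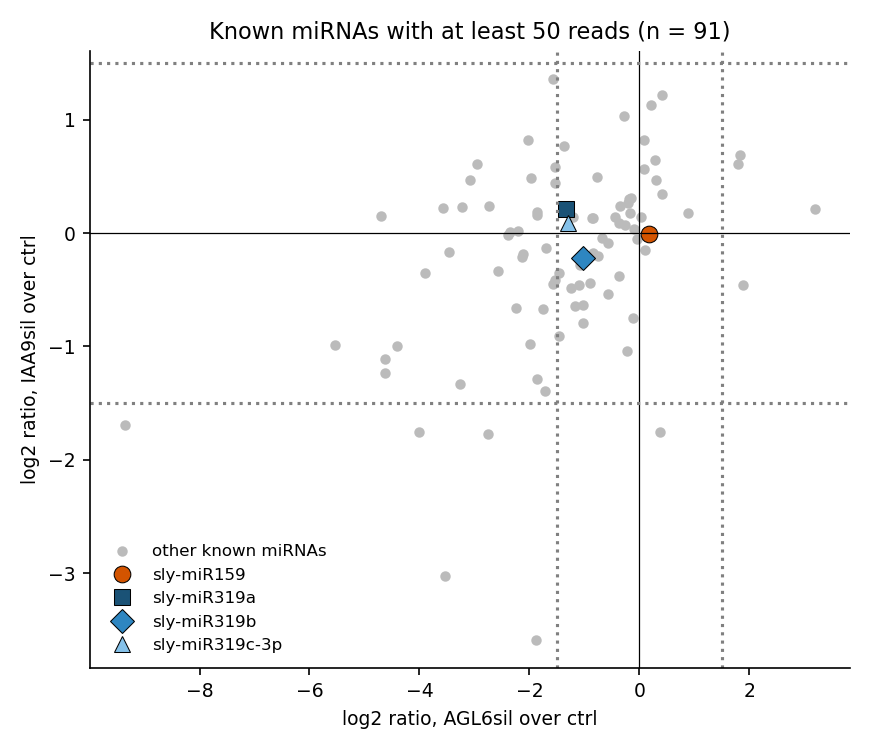
Log2 ratio to ctrl in AGL6sil (horizontal) against that in IAA9sil (vertical) for the 91 known miRNAs with at least 50 reads, scaled by the median of all miRNAs; both axes share the ctrl library, and dotted lines mark 1.5 in size. sly-miR159 sits at 0.17 and −0.01, and the miR319 rows sit left of it, between −1.34 and −1.02 on the horizontal axis.

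In IAA9sil against ctrl, 0 of the 4 members were called, where 6.95% of all 374 miRNAs and 6.59% of the 91 known ones were. sly-miR159 was at −0.01 (interval −0.03 to 0.00), within counting error on this scale, but higher than ctrl with an interval above 0 under the 7 other scalings, by 0.04 to 0.35. sly-miR319a was at 0.22 (−0.05 to 0.49) and sly-miR319c-3p at 0.09 (−0.01 to 0.19), with intervals that include 0 on this scale. Both were higher than ctrl under all 8 scalings, up to 0.57 and 0.45, with an interval above 0 under 6 for sly-miR319a and 7 for sly-miR319c-3p. The interval of sly-miR319b, −0.22 (−0.30 to −0.15), lay below 0, but the direction turned under 2 of the 8 scalings, up to 0.14. Ranked among the 91 known miRNAs, sly-miR159 was at 45 from the top, and the 3 miR319 rows were between 27 and 57. The median of the 91 was −0.02. Of the rows with few reads, sly-miR159b was 2.01 higher than in ctrl, from 14 reads against 3, with an interval of 0.17 to 4.45, and sly-miR319c-5p was at −0.63 (−2.44 to 1.09).

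The silenced libraries were also compared with each other. Here 1 of the 4 members past the read limit was called, sly-miR319a, at −1.56 in AGL6sil relative to IAA9sil (−1.84 to −1.27), where 21.4% of all 374 miRNAs and 39.6% of the 91 known ones were called. Its interval includes −1.5, and the call is lost under 6 of the other 7 scalings, with values up to −0.28. sly-miR319c-3p was at −1.38 (−1.49 to −1.27) and sly-miR319b at −0.80 (−0.87 to −0.72). sly-miR159 was higher in AGL6sil by 0.18 (0.17 to 0.20). sly-miR319a and sly-miR319c-3p were lower in AGL6sil than in IAA9sil under all 8 scalings and sly-miR159 higher under all 8, while sly-miR319b turned to as much as 0.48. With its 0 reads in AGL6sil taken at 3, against 14 in IAA9sil, sly-miR159b was at −3.10 with an interval that reaches up to −2.60, and at up to −1.82 under the other scalings. From 3 reads against 6, sly-miR319c-5p was at −1.87 (−4.50 to 0.35).

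Which other known miRNAs had a pattern like these was read from the distance between log2 ratios to ctrl in the AGL6sil and IAA9sil libraries, over 87 known miRNAs outside the 2 families. The measure does not depend on the scale but rests on 3 libraries only. Nearest to sly-miR159 were sly-miR6022 at a distance of 0.15, sly-miR396b at 0.20 and sly-miR9471b-3p at 0.21. sly-miR6022 had 755 reads in ctrl, 792 in IAA9sil and 1717 in AGL6sil. Nearest to sly-miR319b were sly-miR391 at 0.08, sly-miR9470-3p at 0.19 and sly-miR5302b-5p at 0.25, the last with 21, 18 and 24 reads. By the same measure sly-miR319b lay 1.21 from sly-miR159 and 0.41 from sly-miR319c-3p.

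TCP factors of the kind that miR319 acts on are known in Arabidopsis to activate genes of miR164, which acts on NAC boundary genes, and of miR396, which acts on GRF growth factors. The 6 listed rows of these families all passed the read limit. The list was chosen with earlier results of these data known, so its counts only describe these rows. The rows are also not independent, since sly-miR164a-3p and sly-miR164a-5p are arms of the same precursor. An effect through TCP factors was not tested. In AGL6sil against ctrl, 4 of the 6 were called lower and 0 higher. Of the 91 known miRNAs 42.9% were called lower, as were 51 of all 374 miRNAs past the read limit. The median of the 6 was −2.38, against −1.20 for the 91 and −0.12 for the 374. The 4 rows called were sly-miR164a-3p at −5.53 (195 reads against 4225), sly-miR396a-3p at −4.63 (5560 against 64633), sly-miR164a-5p at −2.73 (41 against 128) and sly-miR164b-3p at −2.03 (425 against 815). The first pair stayed past −1.5 under all 8 scalings, while sly-miR164a-5p reached −1.25 and sly-miR164b-3p −0.55. miR164 and miR396 are known to act from the 5′ arm, although in ctrl the 3p row had more reads than the 5p row for both sly-miR164a and sly-miR396a. The 5p row sly-miR396a-5p was at −1.46 and sly-miR396b was at 0.04. Over the 8 scalings sly-miR396a-5p ranged from −1.46 to 0.02 and sly-miR396b from 0.04 to 1.52. With the median of the known miRNAs as the scale, sly-miR396b passed 1.5 as higher. Low values in AGL6sil were not particular to this list. Outside it, sly-miR166c-5p was at −4.62, sly-miR403-5p at −4.41 and sly-miR482e-5p at −4.01. Over the 91 known miRNAs the log2 ratio ranged from −9.36 to 3.20. In IAA9sil against ctrl 0 of the 6 were called, with values between −1.11 and 0.82. Calls were rare in that comparison, at 6.59% of the 91 known miRNAs and 6.95% of all 374, so a count of 0 among 6 rows says little.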

How the data were processed

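Small RNA of AGL6sil, IAA9sil and ctrl ovaries was sequenced as 1 library per condition. The authors removed low-quality and adapter reads, mapped the rest to the tomato genome with Bowtie (version and build not given in the sources used here), matched them to miRBase or to precursors predicted with miREvo and mirdeep2, and deposited whole read counts per mature miRNA without normalization. How reads matching several mature sequences were counted, and whether mismatches were allowed, is not given there. This touches miR159 and miR319, whose sequences are related.

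Members, lists, limits and alternatives were chosen with earlier results of these data known. The miRNAs named are all 6 members, the 3 nearest in pattern to sly-miR159 and to sly-miR319b, the miR164 and miR396 rows, and sly-miR162. Some known miRNAs with low ratios in AGL6sil are also named beside the miR164 and miR396 rows. Of the 6 members, 4 were matched by name to a gene of the RefSeq assembly SLM_r2.1, and no coordinates were taken from it. Counts were divided by the library median over all miRNAs, and log2 ratios were taken without a pseudocount, with a count of 0 taken at 3 reads. Family ratios within a library used counts as deposited. No test was possible with 1 library per group. The alternatives were 7 other scalings, among them the size factors of DESeq2 1.42.0 and TMM from edgeR 4.0.16, both in R 4.3.3, and the study's clean reads, other filters and limits, and other sets of miR319 rows. Scripts ran under Python 3.11.15 with pandas 2.3.3, scipy 1.17.1 and numpy 2.4.6. Calls and intervals were tested on simulated counts that were scaled by their true factors, so the choice of scale was not tested.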

Additional observations from a re-analysis of the deposited data

How the results depend on the processing

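With 1 library per group no replicate could be left out. No paired analysis was possible because each condition has a single library. In AGL6sil against ctrl the number of members called rose from 0 to 1 with the median of the known miRNAs as the scale (sly-miR159, higher), to 1 without the read limit (sly-miR319c-5p, lower, from 3 reads against 8) and to 3 at a log2 limit of 1 (the abundant miR319 rows, lower). In IAA9sil against ctrl it rose from 0 to 1 without the read limit (sly-miR159b, higher). In AGL6sil against IAA9sil the 1 call, of sly-miR319a, became 0 with the median of the known miRNAs, TMM, the total miRNA count with or without sly-miR162, the clean reads, no scaling, or the counting interval required to lie past 1.5. It became 3 without the read limit and 2 at a log2 limit of 1. The other settings left these counts as they were. The log2 difference of the miR319 to miR159 ratio in AGL6sil against ctrl was −1.19 with sly-miR319b alone and −1.47 without it. In AGL6sil against IAA9sil it was −0.98 and −1.59, and in IAA9sil against ctrl −0.21 and 0.11, so that the sign there rests on sly-miR319b. Without the 5p row or with a pseudocount of 1 it stayed within its counting interval. Calls of the scaled counts in AGL6sil are limited by the choice of scale, and those of sly-miR159b and sly-miR319c-5p by depth.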
